A study of Mus musculus with 4 samples.

Results

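The 43 genes described here encode the machinery that licenses DNA replication origins and runs the replication fork. They were taken from a list of gene symbols, and all 43 were found among the 21887 protein-coding genes of RefSeq GRCm38 (mm10). A gene counted as occupied in a library when at least 1 deposited Sub1 peak overlapped the gene body extended by 1 kb on each side. Sub1 is a single-stranded DNA-binding cofactor of transcription. Its position was mapped by CUT&Tag, in which an antibody tethers a transposase to chromatin. Hematopoietic stem cells (HSCs, sorted as CD48-CD150+ LSK cells, where LSK means Lin-Sca-1+c-Kit+) came from bone marrow of Nup214fl/+ mice. Leukemia stem cells (LSCs, Lin-negative, Sca-1-negative cells positive for c-Kit, CD16/32 and CD34) came from Nup214fl/+ mice with disease driven by MLL-AF9. Heterozygosity for the floxed Nup214 allele was thus shared by both groups, and no Cre, treatment, time or age is given in the labels. Each group had 2 libraries. Separate mice are not stated in the labels, and differences between the libraries of a group may therefore be technical.

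Origins are licensed when the origin recognition complex, with Cdc6 and Cdt1, loads the Mcm2 to Mcm7 helicase onto DNA. The kinase Cdc7 with Dbf4, together with Mcm10, Cdc45 and the GINS complex, then turns the loaded helicase into a moving fork, where DNA polymerases, the clamp Pcna and its loader follow. Most HSCs of adult marrow rest outside the cell cycle, whereas leukemia cells divide, and many of these genes are known targets of E2F factors. The comparison asked whether Sub1 peaks at these genes differed between both cell types. Cycling itself was not measured. The LSC samples, too, carry hematopoietic stem cell as their cell type label, and peak names carry a prefix (H4-Cut) that the labels do not explain.

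HSC 1 and HSC 2 held 115881 and 235680 peaks, and LSC 1 and LSC 2 held 41097 and 34185. Read totals are not given in the sources used here. As a measure of depth, the number of background reads per position, recovered from fold and p, was 3.07 for HSC 1, 7.47 for HSC 2, 4.54 for LSC 1 and 4.50 for LSC 2. All 4 lists ended at nearly the same significance, with a lowest -log10 q of 5.21, 5.26, 5.36 and 5.41. Because the lists differed in length, occupancy was also read from the 34185 peaks of each with the highest -log10 p, as many as LSC 2 has. These lists of equal size end at unequal significance, with a weakest -log10 p of 27.5 in HSC 1, 76.1 in HSC 2, 13.8 in LSC 1 and 7.17 in LSC 2, so a gene missing from an HSC list of equal size can still hold a called peak. Of the HSC sort markers, Ly6a and Slamf1 had peaks in HSCs alone, and the LSC sort marker Cd34 had peaks in all 4 deposited lists but only in LSCs in lists of equal size. By place in the order of genes (a percentile defined with the comparison of groups), Fcgr3, which encodes CD16 of the LSC sort, was higher in HSCs, at 99.1 and 94.3 against 50.6 and 64.0 in LSCs, against the direction of the sort. Kit, used in both sorts, was higher in LSCs, at 4.70 and 18.4 in HSCs and 30.2 and 54.4 in LSCs. Fcgr2b, the CD32 gene, overlapped between groups. The full list of LSC sort and granulocyte-monocyte progenitor markers had 8 ordered genes. Of these, 5 were higher in LSCs (Kit, Mpo, Elane, Prtn3 and Ctsg) and 1, Fcgr3, in HSCs. Over all ordered genes the shares were 23.8% and 23.1%. Elane and Prtn3 had the same places. Peaks show where Sub1 was detected and not expression, and a peak in few cells cannot be told apart from a weak peak in many.

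Promoters of 8 of the genes are shown first, since most of the strongest peaks lay near starts. They are the genes with the strongest peaks in each functional group and those with the largest differences between LSCs and HSCs among genes in the promoter table. The printed bases are mostly not those under a summit. At Cdc7, Pola2, Pcna, Fen1, Mcm10 and Dbf4 the summit of the strongest peak lay outside the printed stretch in every library. At Orc6 and Rfc4 it lay inside in some libraries. Each sequence runs 5′ to 3′ on the gene's own strand from 250 bases before to 50 bases after a start, from RefSeq GRCm38.p6. Capitals mark matches on either strand to the CCAAT box or to an E2F core, written as TTCCCGC, with the variants TTGGCGC, also TTCGCGC, and finally TTGCCGC. The positions are chr8:85299382-85299681 on the plus strand for Orc6, chr5:106964072-106964371 on the plus strand for Cdc7, and chr19:5964157-5964456 on the minus strand for Pola2. They are chr2:132253131-132253430 for Pcna, chr19:10204344-10204643 for Fen1, chr16:23127681-23127980 for Rfc4, chr2:5012742-5013041 for Mcm10 and chr5:8422667-8422966 for Dbf4, all on the minus strand.
Orc6: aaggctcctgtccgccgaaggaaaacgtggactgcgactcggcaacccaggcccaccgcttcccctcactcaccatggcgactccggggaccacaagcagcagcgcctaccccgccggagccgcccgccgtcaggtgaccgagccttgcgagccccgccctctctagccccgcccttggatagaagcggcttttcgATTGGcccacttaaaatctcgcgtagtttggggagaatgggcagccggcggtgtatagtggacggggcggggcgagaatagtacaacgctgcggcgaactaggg
Cdc7: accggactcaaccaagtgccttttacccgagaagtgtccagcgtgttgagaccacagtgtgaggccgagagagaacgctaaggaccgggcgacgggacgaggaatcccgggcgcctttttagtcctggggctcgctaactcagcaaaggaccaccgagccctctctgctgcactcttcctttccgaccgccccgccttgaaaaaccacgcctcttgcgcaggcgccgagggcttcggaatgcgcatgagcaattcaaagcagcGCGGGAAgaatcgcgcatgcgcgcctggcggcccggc
Pola2: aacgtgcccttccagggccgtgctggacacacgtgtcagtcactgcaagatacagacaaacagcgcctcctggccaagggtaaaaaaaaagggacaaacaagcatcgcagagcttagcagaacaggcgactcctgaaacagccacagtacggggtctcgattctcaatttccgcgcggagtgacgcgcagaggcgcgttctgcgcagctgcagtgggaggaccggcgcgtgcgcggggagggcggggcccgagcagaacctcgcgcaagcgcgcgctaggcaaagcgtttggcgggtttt
Pcna: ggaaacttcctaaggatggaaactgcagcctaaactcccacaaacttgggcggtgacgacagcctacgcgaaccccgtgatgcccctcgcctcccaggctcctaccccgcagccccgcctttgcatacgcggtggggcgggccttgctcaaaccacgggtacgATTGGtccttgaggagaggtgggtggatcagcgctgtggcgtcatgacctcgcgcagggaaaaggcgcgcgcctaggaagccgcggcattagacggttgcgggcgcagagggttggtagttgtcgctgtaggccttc
Fen1: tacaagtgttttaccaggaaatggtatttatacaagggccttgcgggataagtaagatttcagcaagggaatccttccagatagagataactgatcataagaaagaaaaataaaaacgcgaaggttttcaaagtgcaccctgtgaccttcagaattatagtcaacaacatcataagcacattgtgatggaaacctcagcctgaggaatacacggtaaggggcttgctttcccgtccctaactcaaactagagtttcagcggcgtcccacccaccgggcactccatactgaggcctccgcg
Rfc4: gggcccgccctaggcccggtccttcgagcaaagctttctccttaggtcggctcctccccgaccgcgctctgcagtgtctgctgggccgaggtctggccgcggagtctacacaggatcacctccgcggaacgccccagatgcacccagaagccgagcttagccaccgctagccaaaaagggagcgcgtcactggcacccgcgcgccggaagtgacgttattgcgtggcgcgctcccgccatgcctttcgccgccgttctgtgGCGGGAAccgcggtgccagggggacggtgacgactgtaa
Mcm10: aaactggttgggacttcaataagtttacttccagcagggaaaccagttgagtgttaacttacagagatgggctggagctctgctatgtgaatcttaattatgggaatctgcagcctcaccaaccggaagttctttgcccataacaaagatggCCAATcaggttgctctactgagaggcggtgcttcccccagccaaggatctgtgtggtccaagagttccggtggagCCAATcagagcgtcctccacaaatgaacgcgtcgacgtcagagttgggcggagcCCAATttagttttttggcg
Dbf4: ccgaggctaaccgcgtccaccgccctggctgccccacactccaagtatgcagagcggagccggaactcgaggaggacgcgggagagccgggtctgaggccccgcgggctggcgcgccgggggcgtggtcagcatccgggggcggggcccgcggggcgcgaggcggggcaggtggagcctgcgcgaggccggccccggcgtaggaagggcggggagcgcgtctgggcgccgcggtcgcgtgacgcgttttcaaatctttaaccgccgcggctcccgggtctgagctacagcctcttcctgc

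An E2F core stood in 20 of 35 promoters of these genes found in the table (57.1%), against 12.2% of 17492 promoters of the same length over all protein-coding genes. A CCAAT box stood in 21 of 35 (60%, against 39.2% of all promoters), and the GC box GGGCGG in 26 of 35 (74.3%, against 46.3%). The cell cycle element TTTGAA stood in 6 of 35 (17.1%, against 16.5%). Among the 8847 ordered genes with a promoter entry, a set occupied like the replication genes and defined with the order of genes, the shares were 17.8% for the E2F core, 39.5% for CCAAT, 64.5% for the GC box and 12.1% for TTTGAA. Mcm6 had 5 matches to the E2F core and Pola1 had 4, while Orc6, Pola2, Pcna, Fen1, Mcm10 and Dbf4 had none in these windows. A match is a description of letters and not a bound site. For a gene with several starts only the outermost was printed and searched, so matches at other starts are not counted. At Fen1 and Cdc7 another start lay nearer to most summits. Gmnn, Gins1, Gins2, Gins4, Mcm4, Pole, Prim2 and Rfc2 were matched to no promoter.

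All 43 genes were occupied in all 4 libraries. Over all protein-coding genes, 68.9% and 82.4% were occupied in HSC 1 and HSC 2, 61.8% and 57.3% in LSC 1 and LSC 2, and 55.4% in all 4. No replication gene was occupied throughout 1 group and absent from the other, where 7.71% of all genes had peaks in HSCs alone and 0.0959% in LSCs alone. Each of the 43 also had a peak within 1 kb of an annotated start, or of either annotated end for the 8 genes without a promoter entry, in each library. For all genes that share was 55.9%, 64.1%, 54.3% and 51.9% in HSC 1, HSC 2, LSC 1 and LSC 2. All 35 genes with a promoter entry had a peak overlapping 1 of its 300-base windows in each library, against 49.7%, 52.4%, 52.5% and 50.1% of genes with an entry. In lists of equal size the start peak was kept by 42, 42, 43 and 43 of 43 genes (48.1%, 47.9%, 53.6% and 51.9% of all genes), and the 300-base peak by 34, 34, 35 and 35 of 35 (46.1%, 44.5%, 52.1% and 50.1%).

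Rfc3, a subunit of the clamp loader, was the exception in lists of equal size. It lies on chromosome 5 from 151642817 to 151651208. Folds are the authors' own values, the ratio of pileup to background at a summit, and are not comparable between libraries. The strongest Rfc3 peak had a fold of 8.84 in HSC 1 and 11.8 in HSC 2, and of 60.8 in LSC 1 and 35.8 in LSC 2. It ranked 36611 and 35618 in HSCs, just beyond the limit of 34185, and 8325 and 8624 in LSCs. The peak therefore existed in all 4 libraries at nearly the same place, with summits 425, 401, 428 and 355 bases into the gene in HSC 1, HSC 2, LSC 1 and LSC 2. In lists of equal size, 42, 42, 43 and 43 of the 43 genes were occupied in the same order of libraries, against 53.5%, 55.9%, 59.9% and 57.3% of all genes, and 42 were occupied in all 4 (49.3%). In these lists Rfc3 alone was in LSCs only, where 2.59% of all genes were in LSCs only and 0.489% in HSCs only. With lists shortened to 17092 peaks, Pold2, the small subunit of polymerase delta, joined it, so 2 of 43 genes were in LSCs only, against 3.87% of all genes.

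The strongest peak of most genes sat just downstream of a start. Its summit lay within 1 kb of a start or annotated end in 39, 41, 42 and 39 of 43 genes in HSC 1, HSC 2, LSC 1 and LSC 2. The median distance was 230, 232, 200 and 230 bases. Among the 35 genes of known direction, the summit lay downstream of the start in 28, 25, 28 and 25 and before the start in 7, 10, 7 and 10. The strongest peaks of the 4 libraries overlapped for 41 genes, the exceptions being Cdt1 and Pole2. In the plot of summit positions the medians of all 4 libraries lie downstream of the start.

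**Figure D1:**
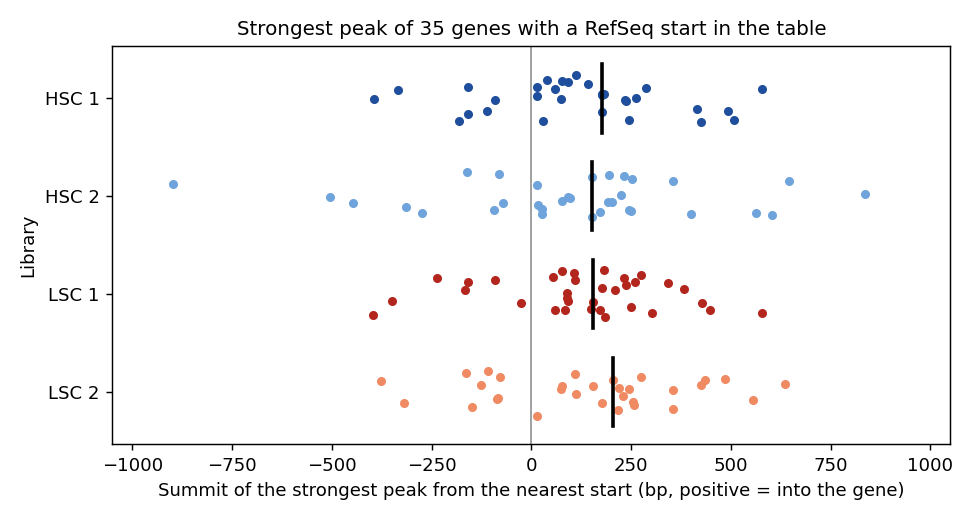
Distance of the summit of the strongest peak from the nearest RefSeq start, in bases, for 35 genes in each library, with positive values in the direction of transcription. Points are genes (height within a row carries no meaning), black bars are medians over all 35, and 4, 2, 1 and 4 summits beyond 1 kb are not drawn in HSC 1, HSC 2, LSC 1 and LSC 2. Medians lie at 176, 151, 155 and 205 bases in that order.

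At Cdt1, the licensing factor held back by Gmnn, the strongest peak overlapping the window in HSC 1, HSC 2 and LSC 2 had its summit 8260, 8069 and 8243 bases past the start, beyond the end of the gene. LSC 1 had its strongest Cdt1 peak at the start, 89 bases into the gene. At Pole2, a subunit of polymerase epsilon, the strongest peak lay more than 31 kb from the start in HSC 1 and LSC 2 (31258 and 31408 bases) and at the start in HSC 2 and LSC 1 (249 and 233 bases). At Mcm2 the summit lay 3649 and 3739 bases before the start in HSC 2 and LSC 2 and inside the gene in HSC 1 and LSC 1. In HSC 1 the summit lay 1894 bases into Pold2 and 1095 bases into Mcm5. At Mcm6 it lay 1368 and 1191 bases into the gene in LSC 1 and LSC 2. Places in the order given below for Cdt1, Pole2, Mcm2, Pold2, Mcm5 and Mcm6 therefore do not always refer to a summit within 1 kb of a start.

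For 14 of the 43 genes the strongest peak also overlapped another protein-coding gene in all 4 libraries. These pairs were Orc1 with Prpf38a, Orc3 with Rars2, Orc4 with Mbd5, Orc6 with Vps35, Mcm4 with Prkdc, Mcm7 with Ap4m1 and Dbf4 with Slc25a40. The others were Cdc45 with Ufd1, Pold1 with Nr1h2, Pcna with Cds2, Fen1 with Tmem258, Lig1 with Zswim9, Rpa1 with Smyd4 and Rpa3 with Umad1. Such a peak cannot be assigned to either gene of a pair. Of the 14 genes described below as higher in LSCs, 4 are in this set (Orc3, Orc6, Mcm4 and Rpa3) and 10 are not.

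To compare groups, the strongest peak of each gene was placed in the order of all genes of its library. The place is a percentile among the 10789 protein-coding genes occupied in all 4 lists of equal size, with 100 the strongest. The same genes were ordered in every library, and 42 of the 43 replication genes were among them, all but Rfc3. Their median place was 64.0 in HSC 1, 59.7 in HSC 2, 70.5 in LSC 1 and 69.9 in LSC 2. In 14 of 42 genes both LSC places lay above both HSC places, as they did in 23.8% of all ordered genes. In 0 of 42 both HSC places lay above both LSC places, where 23.1% of all ordered genes did so. The remaining 28 overlapped. The LSC mean was above the HSC mean in 33 of 42, against 52.6% of all ordered genes. The median difference, always the LSC mean minus the HSC mean, was 7.61 points against 0.799 over all ordered genes. A two-sided exact permutation test over the 6 assignments of 4 libraries gave p = 0.33 for each of the 14, the smallest value that 2 libraries against 2 allow, so none can pass the usual threshold.

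**Figure D2:**
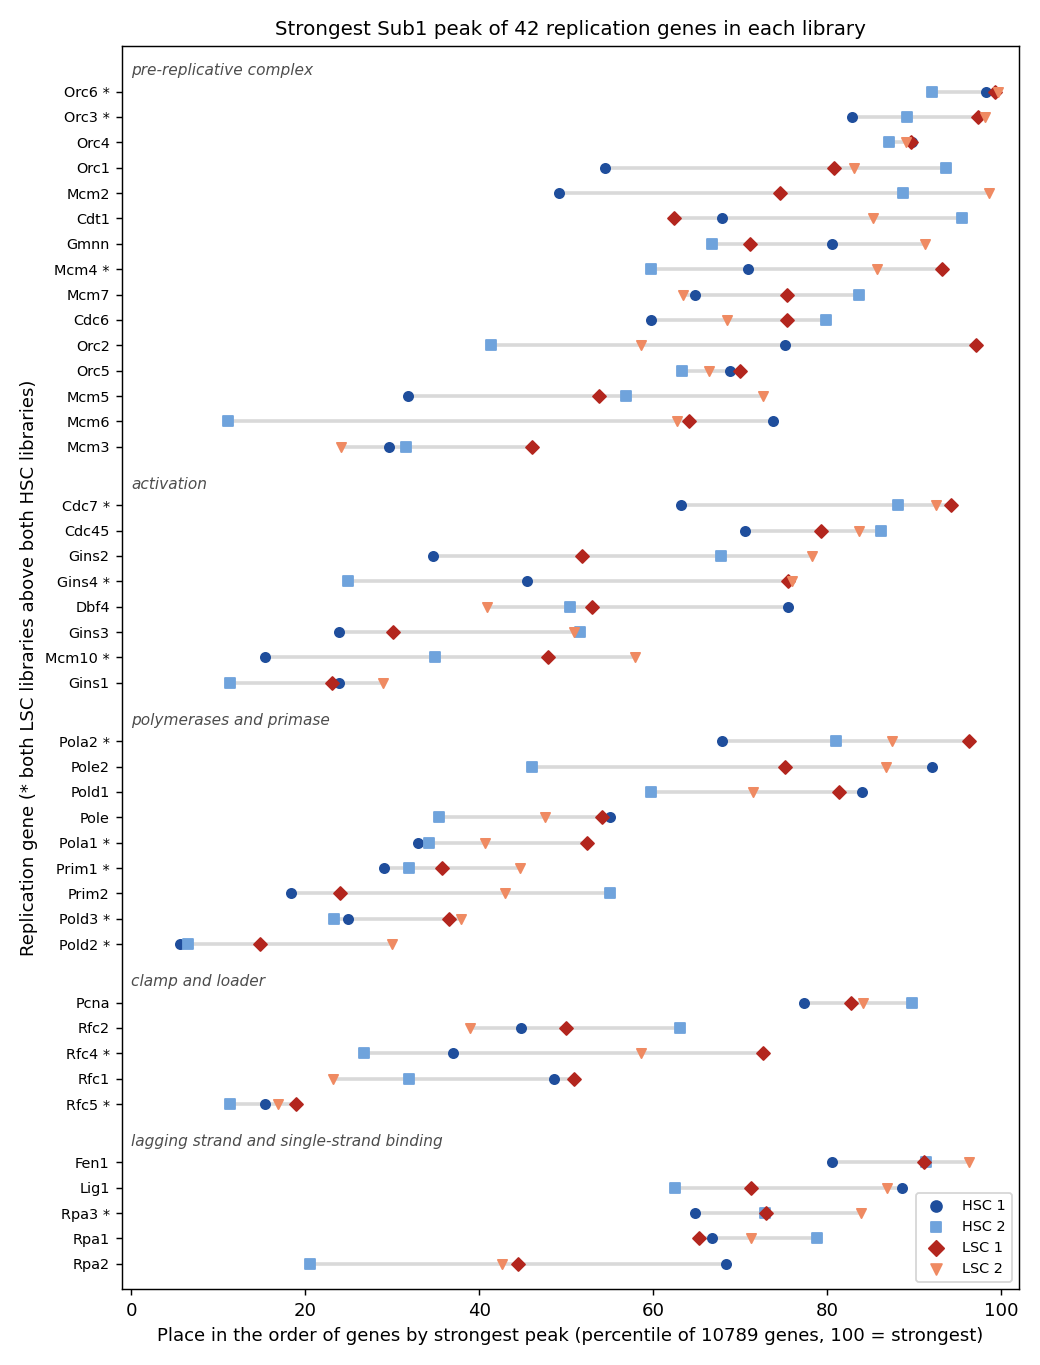
Place of the strongest peak of 42 replication genes in the order of 10789 genes (horizontal axis, percentile, 100 strongest), grouped by function (vertical axis), with 1 symbol per library and a grey line over the range. An asterisk marks the 14 genes with both LSC libraries above both HSC libraries, with Gins4 and Rfc4 showing the widest gaps between groups.

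These counts rest on both libraries of each group. Without HSC 1, 25 genes were higher in LSCs and 10 higher in HSCs (all ordered genes, 40.1% and 39.7%). When HSC 2 was left out the counts were 24 and 8 (40.8% and 36.8%). Dropping LSC 1 gave 20 and 5 (34.2% and 32%), and dropping LSC 2 gave 18 and 2 (36.2% and 34%). Fewer libraries separate more easily, so both counts and both background shares rise. When genes were ordered by the summed length of peak in the window in place of peak strength, 14 genes were again higher in LSCs (23% of all ordered genes) but only 2 of them, Pola1 and Pold2, were among the 14 by strength, and Orc3, Dbf4 and Prim1 were higher in HSCs (22.7% of all ordered genes). Markers of other cells moved too: all 5 neutrophil markers (S100a8, S100a9, Ltf, Ngp and Camp) were higher in both HSC libraries, with median places of 41.3 in HSC 1, 39.5 in HSC 2, 2.66 in LSC 1 and 12.2 in LSC 2, and none was without a peak. The B cell marker Pax5 had peaks in HSCs alone, and Cd79a was higher in both HSC libraries. Of 3 erythroid markers, Alas2 had peaks in HSCs alone, and neither T cell marker had a peak in all 4 libraries. Their part in the places of replication genes was not tested.

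Among the 15 genes that build the pre-replicative complex, 3 were higher in LSCs (20%, against 23.8% of all ordered genes). Orc6, the smallest origin recognition subunit, stood near the top of every library, at 98.3 in HSC 1, 92.0 in HSC 2, 99.2 in LSC 1 and 99.6 in LSC 2. Its strongest peak had folds of 80.3 and 87.7 in HSCs and 357 and 290 in LSCs, the highest of all 43 genes in HSC 1, LSC 1 and LSC 2. Orc3, another subunit, stood at 82.8 and 89.1 in HSCs and 97.3 and 98.2 in LSCs. Mcm4, a helicase subunit on chromosome 16 from 15623897 to 15637400, stood at 70.9 and 59.7 in HSCs and at 93.2 and 85.8 in LSCs, a difference of 24.2 points. All 3 share their peak with a neighbouring gene.

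The other helicase subunits overlapped between groups, and HSC 1 and HSC 2 differed widely for several of them. Mcm6 stood at 73.8 in HSC 1, 11.1 in HSC 2, 64.1 in LSC 1 and 62.7 in LSC 2. Mcm2 stood at 49.1 and 88.7 in HSCs and 74.6 and 98.6 in LSCs, and Mcm5 at 31.8 and 56.8 in HSCs and 53.7 and 72.6 in LSCs. Both were higher in the second library of each group. Mcm3 was the lowest of this group, at 29.6 and 31.6 in HSCs and 46.0 and 24.1 in LSCs. Mcm7 stood at 64.8 and 83.6 in HSCs and 75.4 and 63.4 in LSCs.

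Of the licensing factors, Cdc6, which helps load the helicase, stood at 59.7 and 79.8 in HSCs and at 75.3 and 68.5 in LSCs. Gmnn, the inhibitor of Cdt1, stood at 80.6 and 66.7 in HSCs and at 71.1 and 91.3 in LSCs. Cdt1 stood at 67.8 and 95.5 in HSCs and at 62.4 and 85.2 in LSCs. None of these separated the groups. Orc1 also overlapped, at 54.5 and 93.6 in HSCs and 80.7 and 83.1 in LSCs, as did Orc2, at 75.2 and 41.3 in HSCs and 97.1 and 58.6 in LSCs. Orc4 and Orc5 varied little, between 87.1 and 89.7 and between 63.2 and 69.9 over the 4 libraries.

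Of the 8 genes that activate the helicase, 3 were higher in LSCs (37.5%, against 23.8% of all ordered genes). Among them was the largest difference of all 42. Gins4, a subunit of the GINS complex on chromosome 8 from 23226610 to 23237668, stood at 45.5 in HSC 1, 24.9 in HSC 2, 75.5 in LSC 1 and 76.0 in LSC 2. The group means were 35.2 and 75.7, a difference of 40.6 points. The Gins4 peak held 121 and 222 reads at its summit in HSCs and 976 and 712 in LSCs, as recovered from the caller's fold and background. These read numbers are not normalised between libraries. Mcm10, which helps start the fork and lies on chromosome 2 from 4990724 to 5012791, stood at 15.4 and 34.9 in HSCs and 47.9 and 57.8 in LSCs. Cdc7, the kinase that fires origins, stood at 63.1 and 88.1 in HSCs and 94.2 and 92.5 in LSCs.

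Dbf4, the activating subunit of Cdc7, showed the largest mean difference in the other direction. It stood at 75.5 and 50.4 in HSCs and 53.0 and 40.9 in LSCs, a difference of -16.0 points, and the groups overlapped. When only peaks with a summit within 1 kb of a start were ordered, Dbf4 alone of 38 genes became higher in both HSC libraries. Over all ordered genes that share was 21.3%. The remaining activators overlapped between groups. Gins1 was the lowest, at 23.9 and 11.3 in HSCs and 23.1 and 28.9 in LSCs, and Cdc45, the helicase partner of GINS, stood at 70.5 and 86.2 in HSCs and 79.3 and 83.6 in LSCs. Gins2 stood at 34.7 and 67.8 in HSCs and 51.8 and 78.3 in LSCs, and Gins3 at 23.9 and 51.5 in HSCs and 30.1 and 50.9 in LSCs.

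The polymerase and primase genes had the highest share higher in LSCs of the functional groups, 5 of 9. That was 55.6%, against 23.8% of all ordered genes, although most of the 9 lay low in the order. Pola2, the accessory subunit of polymerase alpha, was the highest, at 67.8 and 81.0 in HSCs and 96.3 and 87.4 in LSCs. Pola1, the catalytic subunit of the same enzyme, stood at 33.0 and 34.2 in HSCs and 52.3 and 40.7 in LSCs, and the primase subunit Prim1 at 29.0 and 31.9 in HSCs and 35.7 and 44.6 in LSCs. Pold2 was the lowest of all 42 genes by mean place, at 5.58 and 6.58 in HSCs and 14.9 and 29.9 in LSCs. Pold3 stood at 25.0 and 23.3 in HSCs and 36.5 and 37.9 in LSCs. Pold1, the catalytic subunit of polymerase delta, overlapped between groups, at 83.9 and 59.7 in HSCs and 81.3 and 71.5 in LSCs. Pole, the catalytic subunit of polymerase epsilon, ran from 35.3 to 55.1, Pole2 from 46.1 to 92.1 and the primase subunit Prim2 from 18.4 to 55.0 over the 4 libraries, all with groups that overlapped.

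Of the 5 ordered genes of the clamp and its loader, Rfc4 and Rfc5 were higher in LSCs (40%, against 23.8% of all ordered genes). Rfc4, on chromosome 16 from 23113948 to 23127730, stood at 37.0 in HSC 1, 26.8 in HSC 2, 72.6 in LSC 1 and 58.6 in LSC 2, a difference of 33.7 points. Rfc5 was low in every library, at 15.4 and 11.3 in HSCs and 18.9 and 16.9 in LSCs. Pcna, the sliding clamp, was the highest of this group and its groups overlapped, at 77.3 and 89.7 in HSCs and 82.7 and 84.0 in LSCs. Rfc1 and Rfc2 overlapped, with differences of -3.19 and -9.51 points.

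Among the 5 genes of the lagging strand and single-strand binding, only Rpa3 separated the groups, higher in LSCs (20%, against 23.8% of ordered genes). It stood at 64.8 and 72.9 in HSCs and 72.9 and 83.9 in LSCs, so HSC 2 and LSC 1 were nearly equal, and it did not separate when only the start window was used. Fen1, the flap nuclease, was the highest, at 80.6 and 91.3 in HSCs and 91.1 and 96.3 in LSCs. Rpa2 was the lowest, at 68.3 and 20.6 in HSCs and 44.5 and 42.6 in LSCs. Lig1, the ligase that joins Okazaki fragments, and Rpa1 overlapped, with differences of 3.49 and -4.53 points.

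**Figure D3:**
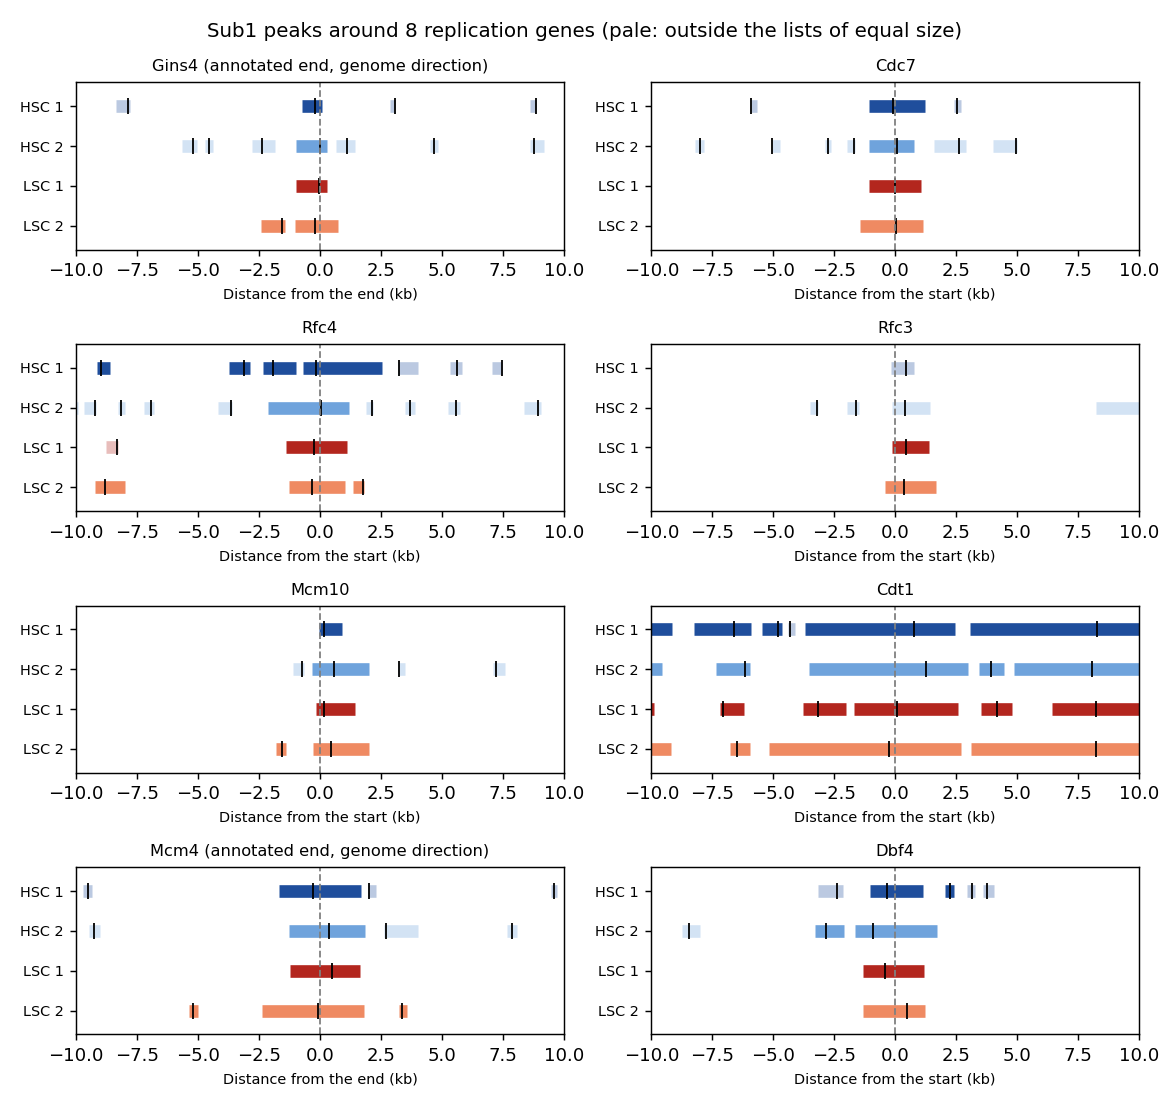
Peaks within 10 kb of the start of 8 replication genes (of an annotated end, in genome direction, for Gins4 and Mcm4), in kb, with 1 row per library. Bars are deposited peaks, black ticks are summits and pale bars are peaks outside the lists of equal size. Rfc3 shows pale peaks at the start in both HSC rows, and Cdt1 shows a separate broad peak about 8 kb past the start.

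Replicate libraries of these genes were not closely matched. The median absolute difference between HSC 1 and HSC 2 was 17.4 points for the 42 genes and 11.3 points for all ordered genes. Between LSC 1 and LSC 2 it was 9.40 and 7.25 points. Of the 14 genes higher in LSCs, the mean difference ran from 4.29 points at Orc6 to 40.6 at Gins4. Leaving out 1 library moved several of these sizes by more than 1.5 times. Without HSC 1 the difference was 5.22 at Cdc7, 7.40 at Orc6, 17.9 at Mcm10, 10.9 at Pola2 and 5.54 at Rpa3. With HSC 2 left out it was 30.2 at Cdc7, 1.17 at Orc6 and 2.52 at Rfc5. Leaving out LSC 1 gave 7.10 at Pola1 and 15.1 at Rpa3, and leaving out LSC 2 gave 8.78 at Pold2, 5.22 at Prim1 and 4.10 at Rpa3. At Gins4 it ran from 30.3 to 50.9 and at Rfc4 from 26.8 to 40.7. Over all ordered genes the middle of the distribution, from the lower to the upper quartile, ran from -8.87 to 10.0 points. Above that upper quartile lay 16 of the 42 genes, and 2 lay below the lower quartile.

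Replication genes were also divided by whether the promoter held an E2F core. Of 19 ordered replication genes with a core, 7 were higher in LSCs, and of 15 without, 5 were. The median difference was 9.59 points with a core and 4.29 without, and the median of the mean places was 53.7 with a core and 77.3 without. Over all ordered genes in the promoter table, 26.4% of 1577 with a core and 23.2% of 7270 without were higher in LSCs. The shares higher in HSCs were 18.2% and 24.1%, and the median differences 2.03 and 0.609 points. These are descriptions of promoters and were not tested.

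Away from the starts, peaks in the windows were far more numerous in HSC lists. The 43 windows held 238 peaks in HSC 1, 329 in HSC 2, 98 in LSC 1 and 95 in LSC 2, of which 183, 272, 54 and 50 lay more than 1 kb from any start. In lists of equal size the totals were 80, 74, 90 and 95, so the HSC excess was not present there. Rfc1, the large loader subunit, had 17 and 24 peaks in HSCs and 3 and 5 in LSCs, Prim2 had 12 and 30 in HSCs and 6 and 3 in LSCs, and Orc1 had 14 and 17 in HSCs and 1 and 2 in LSCs. Rpa3 had 1 peak in each library.

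**Figure D4:**
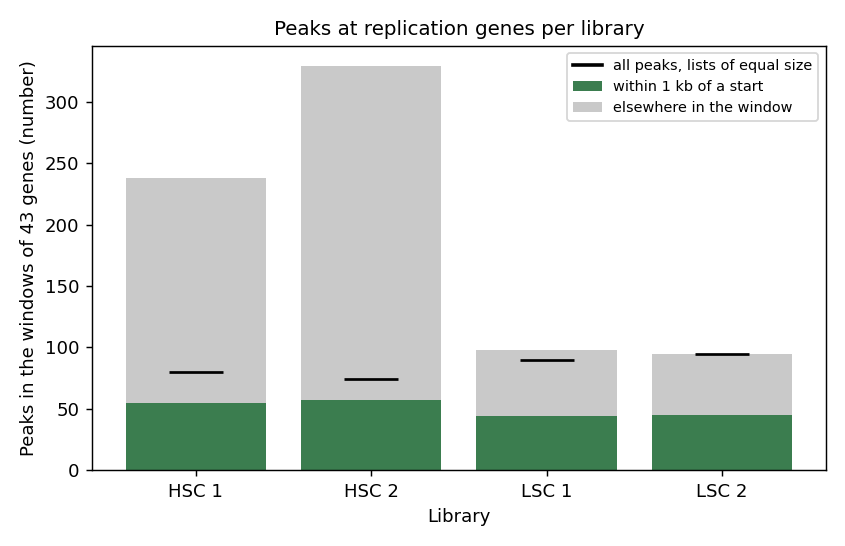
Number of peaks in the windows of 43 replication genes in each library (vertical axis), divided into peaks within 1 kb of a start (green) and elsewhere (grey), with black lines for totals in lists of equal size. The green part differs little between libraries and the grey part is largest in HSC 2.

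Merging overlapping peaks of the 4 libraries gave 384 regions in these windows, of which 59 were in all 4 libraries. Regions found throughout HSCs and in no LSC library numbered 43 (11.2%, against 8.46% of regions in windows of all protein-coding genes). Regions found throughout LSCs and in no HSC library numbered 2, in Gmnn and Pold1 (0.521%, against 0.363%). The HSC regions were weak, with folds of 3.31 to 20.5, and Rfc1 held 6 of them. The strongest pair of folds was at Rpa2, 16.5 and 15.1 on chromosome 4 from 132776366 to 132777629. In lists of equal size the direction turned: 2 of 135 regions were in HSCs only, both in Rpa2 (1.48%, against 2.5%), and 16 were in LSCs only (11.9%, against 5.89%). Of these 16, Gins1 and Pold1 held 3 each. Leaving out 1 library changed the deposited counts. HSC-only and LSC-only regions numbered 210 and 5 when HSC 1 was dropped and 129 and 4 when HSC 2 was. They numbered 49 and 8 when LSC 1 was dropped and 55 and 16 when LSC 2 was. Over windows of all protein-coding genes the HSC-only share was 76.4%, 58.4%, 10.1% and 10.2% in the same order. The LSC-only share there was 0.842%, 2.09%, 1.64% and 3.46%.

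Mcm7 also hosts the microRNA genes Mir106b, Mir93 and Mir25, whose products are known regulators of cell cycle genes. Their mature sequences from RefSeq GRCm38.p6 are shown 5′ to 3′ with the seed in capitals, since the first 2 share a seed and each lies under a weak peak within the gene in at least 1 library.
mmu-miR-106b-5p: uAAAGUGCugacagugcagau
mmu-miR-93-5p: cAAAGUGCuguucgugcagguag
mmu-miR-25-3p: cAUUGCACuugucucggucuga

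The Mir106b hairpin on chromosome 5 from 138165737 to 138165818 lay under a peak in HSC 1, HSC 2 and LSC 1, with folds of 7.61, 11.8 and 5.77. Mir93 lay under that peak of LSC 1 alone. Mir25, from 138165321 to 138165404, lay under a peak in HSC 2 and LSC 2, with folds of 11.8 and 10.4. No hairpin lay under a peak in all 4 libraries. The strongest Mcm7 peak, at the start, had folds of 38.6 and 70.5 in HSCs and 176 and 105 in LSCs.

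Other genes of replication and division, from lists of related function, were compared in the same way. All 34 partners of licensing and the fork, such as Timeless and Chaf1b, were occupied in all 4 deposited lists, against 55.4% of all genes. Of 33 that were ordered, 10 were higher in LSCs and 4 in HSCs, namely Mcmbp, Pold4, Dna2 and Top1. Of 12 nucleotide supply genes, 8 were higher in LSCs, among them Rrm1, Rrm2 and Tyms, and 2, Dck and Samhd1, in HSCs. Of 25 ordered genes of E2F, RB and entry into S phase, 8 were higher in LSCs, including E2f7, E2f8, Ccna2 and Cdc25a, and 4 in HSCs, namely E2f2, Ccnd2, Ccnd3 and Cdkn1b. Of 21 mitosis genes, 7 were higher in LSCs, including Ccnb1, Ccnb2, Cdk1 and Plk1, and 0 in HSCs. The median difference was 3.12 points for the partners, 11.2 for nucleotide supply, 4.62 for the E2F and RB list and 5.48 for mitosis, against 0.799 over all ordered genes. The background shares of 23.8% and 23.1% apply to each list, and genes named within these lists were chosen after their values were seen. Cdkn1c, an inhibitor of cyclin-dependent kinases, had a peak in LSC 1 and LSC 2 and none in HSCs. Over all genes that share was 0.0959% in deposited lists and 2.59% in lists of equal size.

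**Figure D5:**
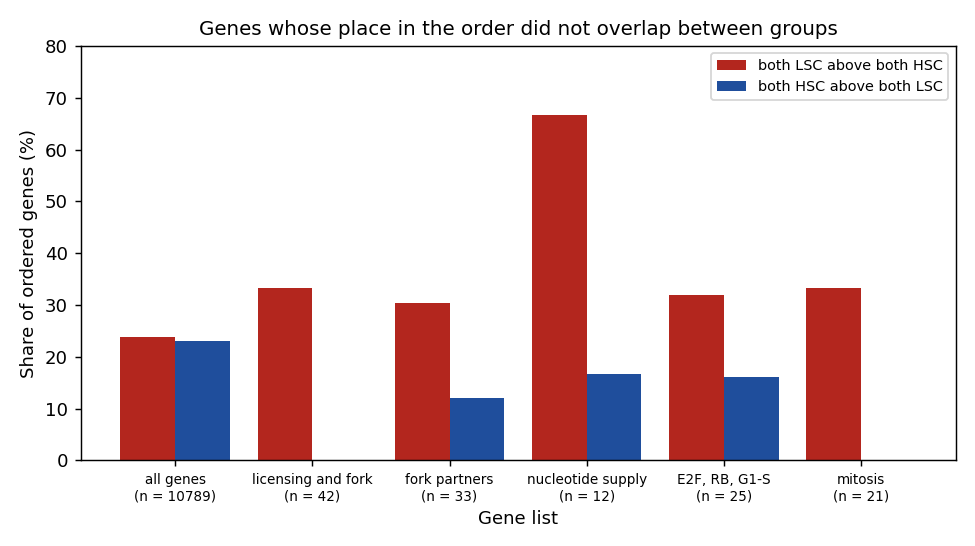
Share of ordered genes (vertical axis, percent) whose places did not overlap between groups, for all 10789 ordered genes, the 42 replication genes and 4 related lists, with n under each. Red bars are genes higher in both LSC libraries and blue bars genes higher in both HSC libraries. Over all genes both bars are near 23%, and the replication and mitosis lists have no blue bar.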

How the data were processed

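Sub1 CUT&Tag was measured in 2 HSC and 2 LSC libraries, prepared with 17 to 20 PCR cycles per the labels' protocols, which give 2000 to 5000 cells for HSCs alone. The tools are FastQC 0.11.5, Bowtie2 2.2.9, MACS2 and ChIPseeker on mm10, per the submitters' processing notes. Handling of duplicates and any control are not given in the sources used here. The deposited lists, 1 per library, give for each peak a fold (a ratio of pileup to background), -log10 p-values and q-values, and a score of 10 times -log10 q. The fold was used only to describe and order peaks within a library.

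Replication genes and gene lists were chosen with earlier results of these data known. RefSeq GRCm38.p6 gave gene bodies for 21887 protein-coding genes and starts for 17492 of them. A peak had to overlap a window by 1 bp. Background coverage was solved from fold and -log10 p of 300 peaks per library with the Poisson formula of the caller. Lists of equal size held 34185 peaks. Groups were compared by occupancy throughout 1 group and absence from the other, by non-overlapping places in the order, and by an exact permutation test over 6 assignments. Genes with values in the text are those not occupied throughout, those whose places do not overlap, the highest and lowest of each functional group, and other members by role. Other settings tried were peaks with -log10 q from 10 up, a start window, gene bodies extended by 3 kb, overlap by the summit alone, lists of 17092 peaks, ranking by fold, order by summed length, 50% overlap of both peaks, a replicate block and leaving out each library. Order among genes of the deposited lists and order by start summits were added after the data were seen. The steps were tested on simulated peak lists. The scripts ran in Python 3.11.15 with pandas 2.3.3 and NumPy 2.4.6, tests used SciPy 1.17.1 and plots matplotlib 3.10.9.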

Additional observations from a re-analysis of the deposited data

How the results depend on the processing

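Peak lists of 2 libraries a group, with unequal length and no read totals, limit what can be compared. Occupancy of the 43 genes stayed at 0 in 1 group only in the deposited lists under the stricter q, both other windows, the summit and each left-out library. The 3 kb window and the left-out libraries could not change this, since all 43 were occupied in all 4 lists. In lists of equal size occupancy stayed at 0 (HSC only) and 1 (LSC only) under the same settings. With lists of 17092 peaks, 2 were in LSCs only (3.87% of all genes). The count of genes higher in LSCs, 14, was 13 to 15 under the other windows, the summit, the stricter q, both orderings and both added settings, and 18 to 25 without 1 library. Genes higher in HSCs numbered 0 (23.1% of all ordered genes), 3 by summed peak length (22.7%) and 1 by start summits (21.3%). Without 1 library they numbered 2 to 10 (32% to 39.7%). The fold gives the same order as -log10 p by construction. HSC-only regions numbered 43 (8.46% of regions in all gene windows), 2 in lists of equal size (2.5%) and 49 to 210 without 1 library (10.1% to 76.4%). LSC-only regions numbered 2 (0.363%), 16 in lists of equal size (5.89%) and 4 to 16 without 1 library (0.842% to 3.46%). With 50% overlap they numbered 25 and 4, for which no share over all windows was computed. Peaks at starts stayed at 100% in the 300-base window, and at 97.7% or more in lists of equal size. For each of the 14 genes the difference in peak strength kept its direction in all 98 gene and setting combinations computed. Most of these could not turn it. Order by fold and the replicate block repeat the main value, and leaving out 1 library cannot reverse places that do not overlap. Only the start window could have changed the direction. Order by summed length is not in the set, and under it Orc3 and Prim1 were higher in HSCs. The size of the difference did not hold as well. At Orc6 it was 4.29, and 1.17 to 7.40 without 1 library, and at Cdc7 17.7, and 5.22 to 30.2. The cause of the changes was not tested, apart from list length and fewer libraries, which act by construction.

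Same-numbered libraries share only a number. Their deviations correlated at r = 0.314 across 10789 ordered genes, which are not independent. With same-numbered libraries paired (replicate block), 20 genes were higher in LSCs in both pairs and 3 in HSCs (Cdt1, Dbf4 and Rpa1). Over all ordered genes the shares were 33.8% and 31.1%. The 14 genes keep their call here by construction, since both of their LSC places lie above both HSC places. The paired exact test cannot go below p = 0.5.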
